A study of Arabidopsis thaliana with 6 samples.

Results

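RBP47C' (AT1G47500) and U1-70K (AT3G50670) are genes for RNA-binding proteins of Arabidopsis thaliana. RBP47C' belongs to the family of RBP45D (AT5G19350), which the series title links to flowering time in the heat and to methylation guided by RNA. U1-70K is a core protein of the U1 small nuclear ribonucleoprotein, or U1 snRNP, which recognises 5′ splice sites. The data are the authors' list of differentially methylated regions between the mutant rbp-ko-1, also labelled KO27, and the wild-type accession Col-0. Every region annotated to either gene was taken, which gave 5 of the 9213 regions in the list. The genes were chosen by the methylation differences of this same list, as a relative of RBP45D and a U1 snRNP protein, each carrying a region. All values at them below are therefore descriptions of the deposited levels, with no test.

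DNA came from 3 libraries of rbp-ko-1 and 3 of Col-0, from plants grown on soil for 26 days under days of 16 h light and 8 h dark. The series title names RBP45D, and the labels do not say how the rbp-ko-1 allele was made or whether libraries came from separate plants. It is the only mutant line here, so that a trait of that line and an effect of the mutation cannot be told apart. Whole-genome bisulfite sequencing was used, in which unmethylated cytosines are read as thymine. Each region has 1 mean methylation level per genotype, with no value per library and no coverage, so no SD, n or interval can be given and the depth is unknown. How completely unmethylated cytosines were converted is unknown too, which bears most on low CHH levels and on small differences between their ratios.

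Plants methylate cytosines in 3 sequence contexts, CG, CHG and CHH, where H stands for A, C or T. CG methylation is copied after replication and is common in the bodies of expressed genes. CHH methylation cannot be copied from the opposite strand and is set anew, in part by RNA-directed DNA methylation, in which small RNAs guide a methyltransferase to matching DNA. Proteins of the RBP45, RBP47 and UBP1 family carry several RNA recognition motifs and bind poly(A) or uridine-rich RNA. They are related to the yeast protein Nam8, a part of the yeast U1 snRNP. U1-70K binds U1 RNA directly and contacts serine/arginine-rich splicing factors, known as SR proteins.

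All 5 regions had less methylation in rbp-ko-1 than in Col-0, which was the usual direction: 97.4% of all CHH and 74.7% of all CG regions in the list were lower. RBP47C' had 2 regions, both CHH and both in its promoter. U1-70K had 2 CHH regions in its promoter and 1 CG region in an exon and the 3′ UTR. Neither gene had a CHG region. For background, 22.0% of 27444 nuclear protein-coding genes had at least 1 region in the gene or promoter, 10.3% had a lower CHH region in the promoter 5.04% had a lower CG region in an exon and 1.35% had a CHG region of either direction.

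**Figure D1:**
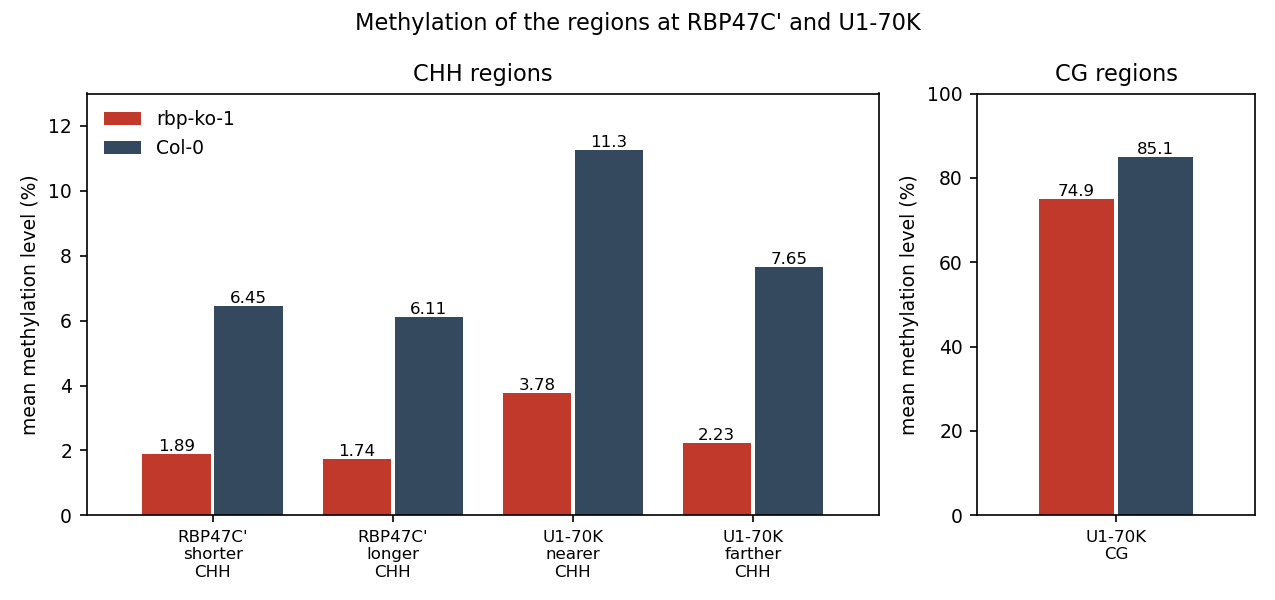
Mean methylation level in percent of the 4 CHH regions (left) and the CG region (right) at RBP47C' and U1-70K, with red bars for rbp-ko-1 and dark bars for Col-0. Each bar is the authors' single mean per genotype, so there are no error bars, and the panels have different scales. The CHH levels lie between 1.74% and 3.78% in rbp-ko-1 and between 6.11% and 11.3% in Col-0.

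At RBP47C', the longer region spanned 429 bp with 131 CHH cytosines (TAIR10, chromosome 1, 17431361 to 17431789). Its methylation level was 1.74% in rbp-ko-1 and 6.11% in Col-0, a difference of -4.37 percentage points. The shorter region spanned 51 bp with 16 CHH cytosines (17430894 to 17430944). It had 1.89% in rbp-ko-1 and 6.45% in Col-0, a difference of -4.56 points. The 2 regions were thus much alike: their levels were 0.152 points apart in rbp-ko-1 and 0.346 points apart in Col-0, and the rbp-ko-1 level was 0.285 of the Col-0 level in the longer and 0.294 in the shorter one.

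A stretch of 416 bp separated the RBP47C' regions, and together they covered 480 bp and 147 CHH cytosines within 896 bp. The shorter one was as short as any region in the list, where the minimum was 51 bp. Neither region was annotated to RBP47C' alone. Both were also listed as promoter of AT1G47495, a gene of unknown function, and the longer one lay over an exon and the 5′ UTR of AT1G47497, which the table describes as a ribonuclease H-like protein gene. In the RefSeq gene order (assembly TAIR10.1), AT1G47497 is the direct neighbour of RBP47C'. The levels therefore describe DNA between RBP47C' and AT1G47495 that holds a gene of its own.

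RBP47C (AT1G47490), the close relative that gave RBP47C' its name, lies 3 genes away in the same order. It had no region in the list, in any context. 5PTASE11 (AT1G47510), an inositol polyphosphate phosphatase gene and the direct neighbour on the other side, had none either. No region in the list was annotated to an exon, intron or UTR of RBP47C' itself. The absence of an entry does not show that the levels of the genotypes were equal there, since the caller and its thresholds are unknown here. RBP47C and RBP47C' are also close copies, which bears on where reads are placed, and this was not tested.

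At U1-70K, which the table names RNU1, the promoter region nearer to the gene spanned 293 bp with 76 CHH cytosines (chromosome 3, 18830861 to 18831153). It had 3.78% in rbp-ko-1 and 11.3% in Col-0, a difference of -7.47 points and the largest of the 4 CHH differences. The farther promoter region spanned 178 bp with 48 CHH cytosines (18831379 to 18831556). It had 2.23% in rbp-ko-1 and 7.65% in Col-0, a difference of -5.42 points. The nearer region had the higher level in both genotypes, by 1.55 points in rbp-ko-1 and 3.60 points in Col-0, and kept a slightly larger share of the Col-0 level, 0.336 against 0.292 for the farther one.

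The gap between the U1-70K promoter regions was 225 bp, and they covered 471 bp and 124 CHH cytosines. Both were also annotated as promoter of AT3G08140, a long non-coding RNA gene next to U1-70K in the RefSeq order. The same promoter levels are thus listed under both genes. Weighted by cytosine number, the CHH level was 3.18% in rbp-ko-1 and 9.86% in Col-0 over the U1-70K regions, and 1.76% in rbp-ko-1 and 6.15% in Col-0 over the RBP47C' regions.

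The U1-70K region in the gene body was of another context than those in the promoter, so place and context cannot be told apart here. The CG region spanned 199 bp with 31 CG cytosines over an exon and the 3′ UTR (18826702 to 18826900), and 3960 bp separated it from the nearer CHH region. Its level was 74.9% in rbp-ko-1 and 85.1% in Col-0, a difference of -10.2 points. The rbp-ko-1 level was 0.880 of the Col-0 level, so most CG methylation was still present, while at the CHH regions the rbp-ko-1 level was 0.285 to 0.336 of the Col-0 level. In points, the CG difference was nonetheless the largest of the 5, although it was small for a CG region, as the whole set shows. No other gene was annotated to this region.

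Set among the 5680 CHH regions that were lower in rbp-ko-1, the 4 promoter regions were not at either end of the range. The medians of that set were 3.14% for the rbp-ko-1 level, 8.99% for the Col-0 level, 5.82 points for the size of the difference and 0.354 for the rbp-ko-1 level as a ratio to the Col-0 level. Its quartiles were 1.67% and 5.58% for the rbp-ko-1 level, 5.97% and 13.7% for the Col-0 level, 4.15 and 8.03 points for the difference, and 0.273 and 0.428 for the ratio. Both RBP47C' regions were close to the lower quartile in levels and difference. Still, all 4 regions lay between these quartiles in each of the 4 measures. Their ratios were all below the median: 1609 of the 5680 regions had a smaller ratio than the longer RBP47C' region and 1750 than the shorter, and 1725 had a smaller one than the farther U1-70K region and 2473 than the nearer. The farther U1-70K region thus fell between the RBP47C' regions, and the genes were not separated by ratio.

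By the size of the difference, both U1-70K promoter regions ranked above both RBP47C' regions. Of the 5680 regions, 1608 (28.3%) had a smaller difference than the longer RBP47C' region and 1765 (31.1%) a smaller one than the shorter. For U1-70K, 2521 regions (44.4%) had a smaller difference than the farther promoter region and 3961 (69.7%) than the nearer one. In length, the shorter RBP47C' region lay below the lower quartile of 144 bp, and the other 3 lay below the upper quartile of 475 bp and above the lower one. A second set held the 3329 lower CHH regions annotated to promoters only. There the shares with a smaller difference were 24.2% and 26.6% for the longer and shorter RBP47C' regions. For the farther and nearer U1-70K regions they were 38.5% and 63.7%. The longer RBP47C' region, also annotated to an exon and the 5′ UTR of AT1G47497, is not itself in that set. The size of its difference was below that set's lower quartile of 4.42 points.

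The U1-70K CG region stood near the upper end of its set in level. Of the 2174 lower CG regions, 2126 (97.8%) had a lower rbp-ko-1 level and 2102 (96.7%) a lower Col-0 level. The median level over these regions was 7.88% in rbp-ko-1 and 29.99% in Col-0. Their median ratio, 0.300, was far below the 0.880 at U1-70K. In size of difference the U1-70K region was toward the lower end: 531 of the 2174 (24.4%) had a smaller one, the median was 18.3 points and the lower quartile 10.4 points. Of the 146 lower CG regions with a Col-0 level of at least 80%, a limit set after the level at U1-70K was known, 36 had a smaller difference than U1-70K. Those 146 had median levels of 68.4% in rbp-ko-1 and 85.0% in Col-0. Their median ratio was 0.804, with quartiles of 0.677 and 0.882, so the U1-70K ratio of 0.880 lay just below the upper quartile. For the 77 of them annotated to an exon, the upper quartile was 0.880. The U1-70K region also had more cytosines than most, 31 against a median of 11.

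**Figure D2:**
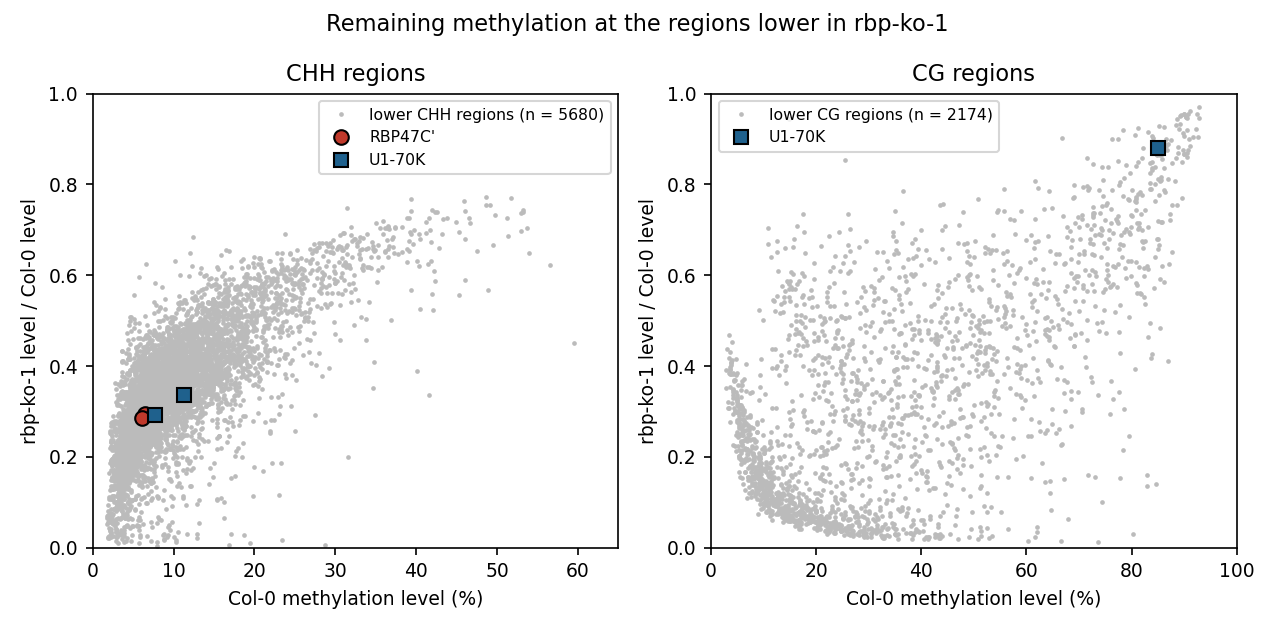
Each grey point is a region lower in rbp-ko-1, with its Col-0 level in percent on the horizontal axis and the rbp-ko-1 level divided by the Col-0 level on the vertical axis, for 5680 CHH regions (left) and 2174 CG regions (right). The RBP47C' regions (red circles) and the U1-70K CHH regions (blue squares) lie inside the dense part of the CHH cloud at ratios of 0.285 to 0.336, and the U1-70K CG region lies at the upper right at 0.880. Level and ratio share the Col-0 value, so the shape of the clouds is no result.

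Carrying several lower CHH promoter regions was common among genes that carried any. Of 2838 protein-coding genes with a lower CHH region in the promoter, 1030 (36.3%) had 2 or more, and these were 3.75% of all 27444 genes. RBP47C' and U1-70K are both among them. A lower CG region in an exon was also present at 80 of the 1030, U1-70K included, which is 0.292% of all genes. These counts come from the contrast that chose the genes, and nothing is read from them.

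No other region of any context lay within 10 kb of the regions of either gene. Among 6051 protein-coding genes with a region, the median number of other regions within 10 kb was 1, and 2490 genes (41.2%) had 0. RBP47C' lies 2.43 Mb from the centromere, taken as 15 Mb on chromosome 1, and U1-70K lies 4.83 Mb away, with 14 Mb taken for chromosome 3. Of the 1602 genes with a region within 3 Mb of a centromere, where the median was 2 other regions, 407 (25.4%) had 0. Beyond 3 Mb, 2083 of 4449 genes (46.8%) had 0. Both genes thus carried an isolated group of regions, as did many others.

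The nearest regions outside the window were lower in rbp-ko-1 as well. On the RBP47C side of RBP47C', 11.7 and 12.0 kb away, 2 CG regions lay in an exon of CXE2 (AT1G47480), a probable carboxylesterase gene. The farther one had 3.65% in rbp-ko-1 and 22.4% in Col-0, and the nearer one 1.46% in rbp-ko-1 and 3.81% in Col-0. A CHH region in the promoter of AT1G47470, 15.4 kb away, had 0.637% in rbp-ko-1 and 3.29% in Col-0. On the 5PTASE11 side the next region was 71.5 kb away. It lay in the promoter of AT1G47610, with 2.15% in rbp-ko-1 and 5.92% in Col-0 in CHH.

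Beside U1-70K, the closest region was a CG region in the promoter of AT3G50720, a protein kinase gene, 19.1 kb away. It had 20.5% in rbp-ko-1 and 61.3% in Col-0, a difference of -40.9 points, against -10.2 points at the U1-70K exon. A CHH region 19.5 kb away, in the promoter of the same gene and of a 5S ribosomal RNA gene, had 1.82% in rbp-ko-1 and 6.50% in Col-0. On the other side, beyond a tRNA gene and DWF4 (AT3G50660), a brassinosteroid biosynthesis gene without a region, the next was a CHH region of 4393 bp at AT3G08125, 30.8 kb away. There 1327 cytosines had 7.49% in rbp-ko-1 and 19.4% in Col-0, both higher than at the U1-70K promoter. Within 100 kb lay 17 other regions around RBP47C' and 11 around U1-70K, and all were lower. In the whole list 97.4% of CHH and 74.7% of CG regions were lower.

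**Figure D3:**
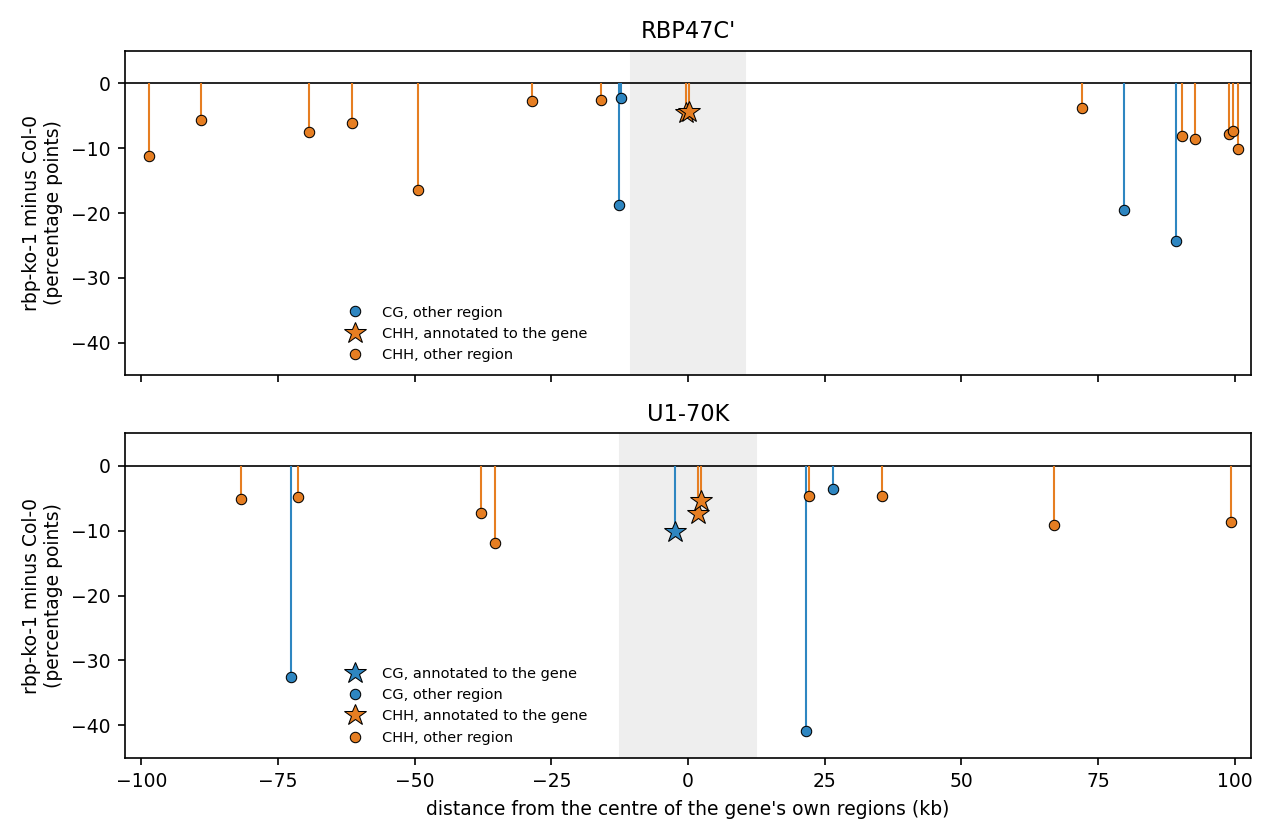
Difference in methylation, rbp-ko-1 minus Col-0 in percentage points, of every region within 100 kb of RBP47C' (top) and U1-70K (bottom), against distance in kb from the centre of the gene's own regions. Stars are regions annotated to the gene, circles other regions, orange CHH and blue CG, and the grey band is the 10 kb window on either side, which holds no circle. All points lie below 0.

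Genes for related proteins and for other splicing factors were taken from 4 lists with 41 genes. Of these, 8 genes (19.5%) had a region in the gene or promoter, against 22.0% of all protein-coding genes. They carried 13 regions, 9 lower and 4 higher. All 6 CHH regions were lower, 3 CG regions were lower and 4 were higher, and there was no CHG region. In the whole list 97.4% of CHH and 74.7% of CG regions were lower, and 1.35% of all protein-coding genes had a CHG region. The 9 lower regions include the 5 at RBP47C' and U1-70K. Both of these genes were chosen at the start for carrying a region, so the share of 19.5% cannot be compared fairly with that of all genes. The lists were not tested.

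In the RBP45, RBP47 and UBP1 family, 3 of 11 genes had a region, among them RBP47C', which was chosen for carrying one. RBP45D had none, and neither did RBP45A, RBP45B, RBP45C, RBP47A, RBP47B, RBP47C or UBP1B. Of all protein-coding genes, 22.0% had a region and 10.3% a lower CHH region in the promoter. Within the family RBP47C' alone had CHH regions, but it was chosen with these regions known, so nothing is read from that. UBP1A and UBP1C, which bind uridine-rich RNA, had 1 CG region each, in opposite directions. An exon and intron of UBP1A (AT1G54080) had 72.8% in rbp-ko-1 and 53.1% in Col-0 over 15 cytosines. An exon and the 3′ UTR of UBP1C (AT3G14100) had 20.3% in rbp-ko-1 and 43.7% in Col-0 over 11 cytosines, so that a larger share was missing than at the U1-70K 3′ UTR.

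Among the 3 core proteins specific to the U1 snRNP, U1-70K was chosen for carrying a region, and U1A and U1C had none. None of the 7 accessory genes had one, which cover PRP39 and PRP40 proteins, known from yeast as parts of the U1 snRNP, and LUC7 proteins, which act in choosing 5′ splice sites. Of 20 genes for SR and SR-like proteins, some of which bind U1-70K, 4 had a region, 2 lower and 2 higher. For background, a lower region of any context was found at 19.1% of all protein-coding genes and a higher one at 4.09%. For CG alone the shares were 8.85% lower and 3.37% higher.

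SR45 (AT1G16610), an SR-like splicing factor that binds U1-70K, was the gene of these lists most like the 2 genes in kind of region, with a pair of CHH promoter regions. The longer one spanned 1439 bp with 397 cytosines and had 4.63% in rbp-ko-1 and 13.7% in Col-0. The shorter one, of 350 bp and 115 cytosines, had 9.90% in rbp-ko-1 and 23.7% in Col-0. Both SR45 regions had higher levels in each genotype than any CHH region at RBP47C' or U1-70K. Their ratios of 0.339 and 0.417 were above the 0.336 at the nearer U1-70K region. This likeness was noticed after the values were seen.

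The other SR genes had CG regions only. SCL33 (AT1G55310), which also binds U1-70K, had 13.4% in rbp-ko-1 and 26.3% in Col-0 over 9 cytosines of an exon, intron and 3′ UTR. RSZ22A (AT2G24590) had 2 exon regions of 9 and 13 cytosines with more methylation in rbp-ko-1, 28.3% against 8.99% in Col-0 and 46.4% against 24.1% in Col-0. An exon of RS40 (AT4G25500) had 86.9% in rbp-ko-1 and 65.3% in Col-0 over 11 cytosines. RS40 and UBP1A thus reached levels like that of U1-70K in gene-body CG methylation, but with the higher level in rbp-ko-1.

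**Figure D4:**
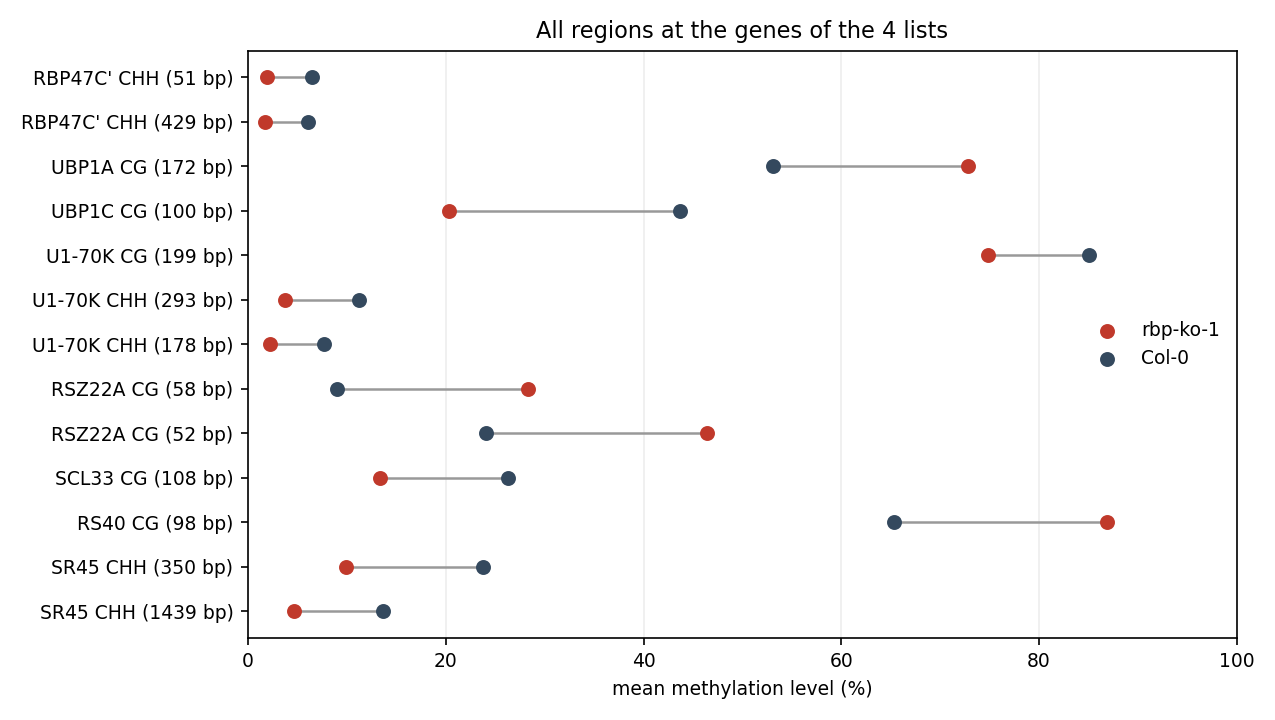
Mean methylation level in percent of all 13 regions at genes of the 4 lists, with red points for rbp-ko-1 and dark points for Col-0, joined by a line. Each row is a region with its context and length. The red point lies left of the dark one in 9 rows, which include the 5 at RBP47C' and U1-70K, and right of it in the 4 CG rows of UBP1A, RSZ22A and RS40.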

How the data were processed

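The data are whole-genome bisulfite sequencing of 6 libraries, and the file is a table of regions between rbp-ko-1 and Col-0. The submitters' processing notes name build TAIR10 and, with no versions or roles, the tools Bismark, MethylDackel, FastQC and Trimmomatic. For the region caller, its thresholds, the promoter length, conversion rates and depth, the sources used here hold nothing.

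The authors deposited each level as a fraction, averaged over a genotype, and it is printed in percent. Their deposited area statistic, a score, served only in an alternative ranking. The table's 18828 entries were reduced to 9213 regions. Other regions were counted if at least 1 bp lay within 10 kb of the outer ends of a gene's regions; the planned window from the gene's ends was not used, because the RefSeq table is of assembly TAIR10.1. That table gave gene types, names and order, and all 41 list genes matched it.

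No test was run, since the genes were chosen on this contrast. Members and lists were chosen with earlier results of these data known. Genes named are the members, those within 10 kb, direct neighbours, list genes with a region and RBP45D. Genes of regions beyond the window, RBP47C and list genes without a region were named after their values were seen. Code was tested on simulated regions (Python 3.11.15, pandas 2.3.3, SciPy 1.17.1).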

Additional observations from a re-analysis of the deposited data

How the results depend on the processing

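Of the 5 regions at RBP47C' and U1-70K, 3 were left at a minimum difference of 5 points, 1 at 10 points and 1 with gene-body annotation only. Within 20 kb there were 3 other regions at RBP47C' and 2 at U1-70K, against 0 within 10 kb. The share of lower regions with a smaller difference was 29.6% for the shorter and 27.0% for the longer RBP47C' region, and 43.0% for the farther U1-70K promoter region, when the mitochondrial genome and the copy of it on chromosome 2 were left out. Ranked by how small a part of the Col-0 level rbp-ko-1 kept, the shares with a weaker loss were 69.2% and 71.7% for the shorter and longer RBP47C' regions, and 56.4%, 69.6% and 1.98% for the nearer, farther and CG regions of U1-70K, against 69.7%, 44.4% and 24.4% by the difference. By the area statistic, which is larger for longer regions, they were 4.17% and 70.3%, and 56.9%, 31.0% and 89.7%. The ranking of the regions therefore depends on the measure, and the order by difference is no order of strength. The other 20 of 38 values stayed within 1.5 times for counts, the exact 95% interval for shares, or 1 SD for the mean difference. That mean and SD were over the 4 CHH regions, with a mean of -5.45 points, or -5.43 weighted by cytosines. Such limits only sort the values: neither the interval nor the SD measures a spread between plants or libraries. All settings counted, ranked or averaged the same deposited values, so none could reverse a direction.

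No paired analysis was possible because the table gives 1 mean per genotype, and no fit without a library was run for the same reason. Unknown depth limits the regions with the fewest cytosines most, among them the shorter RBP47C' region with 16.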
